A study of Homo sapiens with 22 samples.

Results

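GJB2 and NTSR1 are 2 of the 37908 genes in the count table of this RNA-seq series. They were chosen by the size of their fall when β-catenin was depleted under GSK3 inhibition in BRCA2-deficient cells. That contrast, and every contrast sharing its libraries, is therefore given below as a description without a test. GJB2 (ENSG00000165474, chr13:20761602-20767077 on GRCh37, minus strand) encodes connexin Cx26, a protein of gap junctions. NTSR1 (ENSG00000101188, chr20:61340188-61394123, plus strand) encodes the high-affinity receptor for the peptide neurotensin.

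All libraries came from the lung cancer line H1299 (human, non-small cell), in which an shRNA targeting BRCA2 can be switched on with doxycycline (DOX). BRCA2-deficient here means 3 days of DOX at 2 µg/mL, and BRCA2-proficient means no DOX. A day after DOX addition both kinds received a control siRNA or one targeting β-catenin (siβ-catenin), and they were then left without inhibitor or treated for 24 h with 250 nM LY2090314, an inhibitor of GSK3 (GSK3i). The 8 groups are thus untreated (control siRNA, no inhibitor), GSK3i (with control siRNA), siβ-catenin (no inhibitor) and GSK3i plus siβ-catenin, in each BRCA2 background. Of the BRCA2-proficient groups, untreated and siβ-catenin held 2 libraries each, numbered 2 and 3, and the other 6 groups held 3, which made 22 libraries. The cells of every group carried the shRNA cassette, and no group received DOX without it, so effects of DOX and of BRCA2 loss cannot be told apart. No second cell line was among them.

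Gap junctions are channels between neighbouring cells built from connexins, which let ions and small metabolites pass. GJB2 is the connexin of many epithelia and of the inner ear, where its loss causes hereditary deafness, and it sits in a cluster of connexin genes on chromosome 13. NTSR1 is a G protein-coupled receptor that acts mainly through Gq proteins, phospholipase C and calcium, and it is expressed in several carcinomas, among them colon tumours, where it has been described as a gene of the β-catenin pathway. β-catenin is degraded after phosphorylation by GSK3. When GSK3 is inhibited it accumulates and acts in the nucleus with the DNA-binding proteins of the TCF/LEF family.

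The stretches of 250 bases directly upstream of both annotated start sites are shown because the 2 genes moved together with GSK3i and a TCF/LEF motif can be looked for in them. Both are printed 5′ to 3′ on the strand of the gene from GRCh37, at chr13:20767078-20767327 (minus strand) and chr20:61339938-61340187 (plus strand), and their letters matched the RefSeq promoter table for GRCh38.
GJB2 upstream: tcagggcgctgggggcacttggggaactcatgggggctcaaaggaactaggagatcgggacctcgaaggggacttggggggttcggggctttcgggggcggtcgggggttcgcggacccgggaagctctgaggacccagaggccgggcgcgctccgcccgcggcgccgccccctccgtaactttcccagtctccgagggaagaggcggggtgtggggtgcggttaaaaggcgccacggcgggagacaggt
NTSR1 upstream: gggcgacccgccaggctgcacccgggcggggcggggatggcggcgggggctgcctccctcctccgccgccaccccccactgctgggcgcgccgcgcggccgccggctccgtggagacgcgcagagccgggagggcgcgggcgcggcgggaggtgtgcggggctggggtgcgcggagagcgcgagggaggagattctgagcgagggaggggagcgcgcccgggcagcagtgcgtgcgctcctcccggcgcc
Both are rich in G and C (70% for GJB2 and 82% for NTSR1). Neither window, extended by 50 bases past the start, held the TCF/LEF heptamer CTTTGNN on either strand, where each N stands for A or T, against 12.2% of the 300-base windows at 20098 protein-coding start sites that held at least 1.

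Within 2000 bases on each side, GJB2 had 1 such heptamer and NTSR1 had 3. They are shown with 10 bases of context on each side, on the strand of the gene, with the heptamer (or its reverse complement) in capitals.
GJB2, 1963 bases upstream, chr13:20769034-20769040: ggagaactaaATCAAAGaaaacaagga
NTSR1, 1658 bases upstream, chr20:61338530-61338536: ctggcgtttcCTTTGATgccaagattt
NTSR1, 809 bases upstream, chr20:61339379-61339385: cctccccagaCTTTGATgaaaccatct
NTSR1, 1983 bases downstream of the start in the first intron, chr20:61342170-61342176: cggtcgggaaCTTTGAAaggcatcttg
The GJB2 match reads as a heptamer on the opposite strand. Of the 4000-base windows, 88.1% held at least 1 heptamer and 45.9% at least 3, so the number at either gene is common. AXIN2, the scaffold protein that is the standard readout of β-catenin activity, had 7, which 3.79% of windows reached. These matches are letters in the genome and not measured binding sites.

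Library totals ran from 18.9 to 29.3 M counts. GJB2 had 11 to 248 raw counts per library and NTSR1 45 to 926, so GJB2 was the gene more limited by counting error. Levels below are normalised counts, the raw counts scaled by the DESeq2 size factor of each library. Where groups are said not to overlap, the share of all genes that did so was not counted. BRCA2 had 513.6 to 1111 normalised counts in the 10 libraries labelled BRCA2-proficient and 71.4 to 225.3 in the 12 labelled BRCA2-deficient. CTNNB1, the gene of β-catenin, had 976.8 to 2217 with siβ-catenin and 5206 to 8669 with control siRNA. The cells carried the keratins KRT8 (2037 to 8200) and KRT18 together with mesenchymal VIM and CDH2. The epithelial markers KRT19 and CDH1 did not exceed 5.9 in any library, nor did the surfactant genes SFTPB and SFTPC, while the epithelial EPCAM reached 22.2, the lung lineage factor NKX2-1 had 19.8 to 108.3 and NAPSA reached 9.2.

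A pair of BRCA2-proficient libraries went against its GSK3i labels. A score was taken over 155 genes that were higher and 346 that were lower with GSK3i in BRCA2-deficient cells given siβ-catenin, as the difference of their mean log2 levels. It was 1.96 to 2.49 in 11 libraries with GSK3i and -0.74 to -0.01 in 8 without. The BRCA2-deficient siβ-catenin libraries that chose the genes are among these, and stand apart by that choice. The library labelled siβ-catenin replicate 2, without GSK3i, scored 2.22, and replicate 2 of the group labelled GSK3i plus siβ-catenin scored -0.08. In that order they had 67.2 and 73.1 normalised counts of AXIN2, beside 117.4 to 1747 in the 11 libraries and 59.5 to 96.9 in the 8. AXIN2 in the first thus did not follow its score. The library labelled siβ-catenin replicate 3 scored 0.73, between both ranges of the score. The labels were kept, and values of GJB2 and NTSR1 that rest on those replicates 2 are also given without them.

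GJB2 was high in the libraries that had GSK3i and control siRNA and low in all others. In untreated BRCA2-proficient cells it had 12.8 and 24.7 normalised counts. With GSK3i it had 175.9, 158.2 and 128.5. With siβ-catenin it had 25.3 (in the library labelled replicate 2) and 17.99. Depletion of β-catenin under GSK3i gave 37.3, 19.2 (replicate 2) and 34.6, of which 19.2 lay between the untreated libraries.

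In BRCA2-deficient cells GJB2 had 30.9, 23.8 and 44.002 normalised counts without treatment and 248.6, 219.3 and 207.4 with GSK3i. With siβ-catenin alone it had 30.3, 19.4 and 36.1. With GSK3i and siβ-catenin it had 51.0, 44.3 and 49.7. Over the 22 libraries, the 6 with GSK3i and control siRNA spanned 128.5 to 248.6 and the other 16 spanned 12.8 to 51.0, without overlap. The BRCA2-deficient libraries with GSK3i on both sides chose the gene, and stand apart by that choice.

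NTSR1 was also highest in the groups with GSK3i and control siRNA. In BRCA2-proficient cells it had 185.8 and 142.8 normalised counts without treatment and 790.8, 1054 and 474.7 with GSK3i. With siβ-catenin it had 288.7 in the library labelled replicate 2 and 76.0 in replicate 3. With GSK3i and siβ-catenin it had 240.7, 160.7 (replicate 2) and 185.7. The GSK3i libraries were the highest of this background, and the siβ-catenin pair lay on both sides of the untreated pair.

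In BRCA2-deficient cells NTSR1 had 185.6, 85.6 and 142.2 normalised counts without treatment and 472.0, 278.5 and 272.7 with GSK3i. It had 89.1, 59.8 and 35.3 with siβ-catenin alone and 112.0, 58.4 and 36.9 with both. In all 4 groups of this background replicate 1 was the highest library. The 6 libraries with GSK3i and control siRNA spanned 272.7 to 1054 and the other 16 spanned 35.3 to 288.7, and the overlap came from the siβ-catenin library labelled replicate 2 that scored as treated. As for GJB2, the BRCA2-deficient libraries with GSK3i chose the gene.

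**Figure D1:**
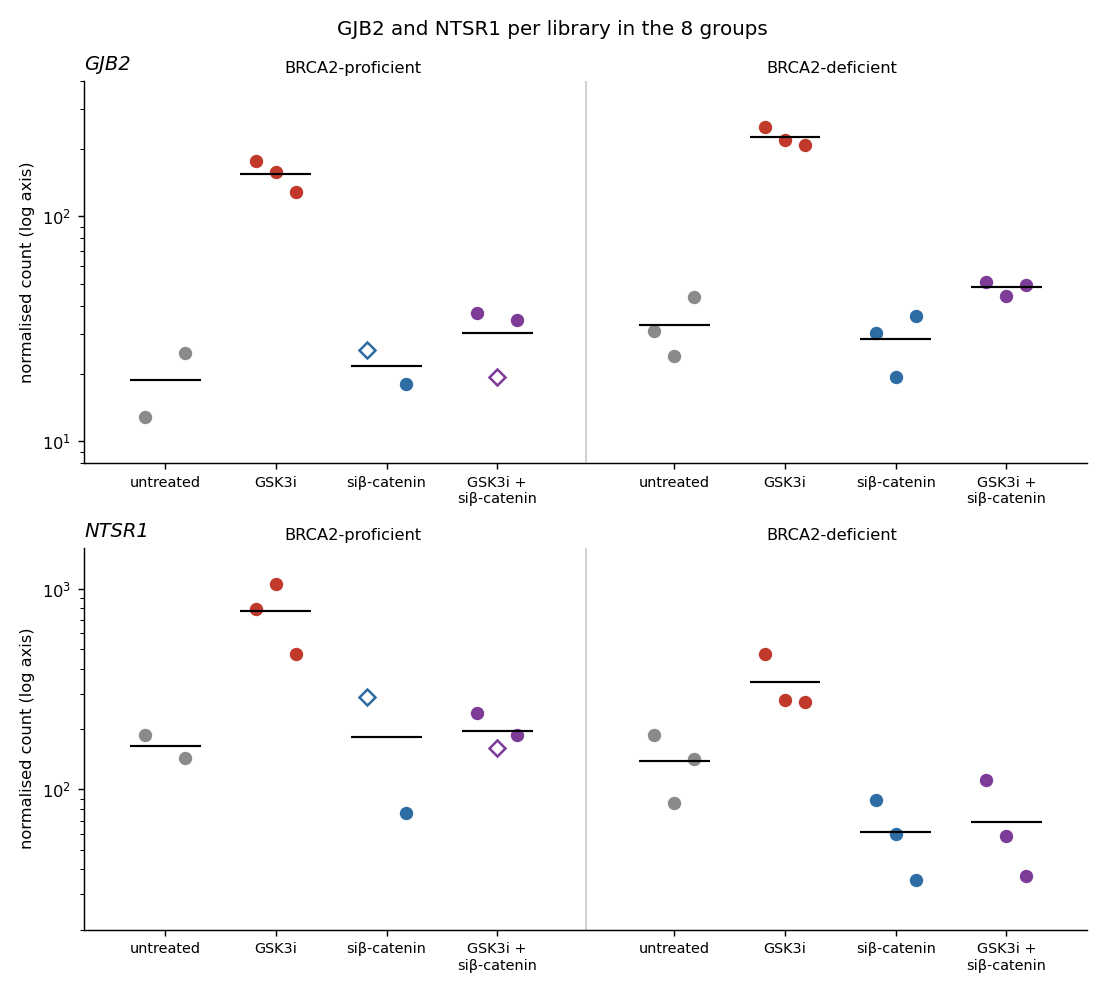
Normalised counts (log axis) of GJB2 (top) and NTSR1 (bottom) in each of the 22 libraries, by group, with the BRCA2-proficient groups on the left. Points are libraries, black lines group means, and open diamonds the libraries labelled replicate 2 whose GSK3i score went against the label. The GSK3i groups stand highest, at 128.5 to 248.6 for GJB2 and 272.7 to 1054 for NTSR1, and the groups given siβ-catenin as well lie below them. In BRCA2-deficient cells this difference chose the genes. For NTSR1 in BRCA2-deficient cells, the group with both spans 36.9 to 112.0 and the untreated group 85.6 to 185.6.

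Placed in order of their means, the GJB2 groups ran from BRCA2-proficient untreated (18.8 ± 8.47, SD, n = 2) to BRCA2-deficient GSK3i (225.1 ± 21.2, n = 3). Neighbours among the 5 lowest groups overlapped in range. BRCA2-deficient GSK3i with siβ-catenin came next (48.4 ± 3.54, n = 3), followed by BRCA2-proficient GSK3i (154.2 ± 23.9, n = 3). The former lay above the untreated BRCA2-deficient libraries, but only 44.3 (replicate 2) and 44.002 (untreated replicate 3) separated the nearest libraries. Scaled to library totals, the same libraries stood at 1.90 and 1.99 counts per M, so the groups then overlapped.

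The order of NTSR1 was another one. Its lowest groups were the BRCA2-deficient ones with siβ-catenin, at 61.4 ± 26.9 without and 69.1 ± 38.7 with GSK3i (SD, n = 3 each). Neighbours among the 6 lowest groups overlapped in range. BRCA2-deficient GSK3i (341.1 ± 113) and BRCA2-proficient GSK3i (773.0 ± 290, n = 3 each) stood above them, with no overlap between each other, although only 472.0 and 474.7 separated their nearest libraries.

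Per kilobase of annotated exon, which allows both genes to be set side by side, the 2 levels stood apart with GSK3i where BRCA2 was present and overlapped where it was depleted. In BRCA2-proficient cells with GSK3i, NTSR1 had 112.0 to 248.6 normalised counts per kb and GJB2 had 52.0 to 71.1. In BRCA2-deficient cells with GSK3i, NTSR1 had 64.3 to 111.4 per kb and GJB2 83.8 to 100.5.

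The contrast that chose the genes, siβ-catenin under GSK3i in BRCA2-deficient cells, gave a log2 fold change of -2.22 ± 0.22 (SE) for GJB2 and -2.31 ± 0.39 for NTSR1. In that contrast 5.52% of 17025 genes were called, and nothing is read from the members' place among them. A gene was called when DESeq2's Wald test gave it an adjusted p under 0.05 and its log2 fold change exceeded 0.5 in size. For GSK3i in BRCA2-deficient cells, which used the same GSK3i libraries, the log2 fold change was 2.77 ± 0.29 for GJB2 and 1.30 ± 0.33 for NTSR1, and 25.4% of genes were called. The libraries of each gene did not overlap in either contrast.

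The BRCA2-proficient libraries had no part in that choice, and the same contrasts were tested there. GJB2 rose 7.99-fold with GSK3i, a log2 fold change of 3.00 ± 0.37 (DESeq2, adjusted p = 1.78e-14, n = 3 against 2). NTSR1 rose 4.67-fold, a log2 fold change of 2.22 ± 0.27 (DESeq2, adjusted p = 1.17e-14). The groups did not overlap for either gene, but the share of all genes without overlap was not counted. In this comparison 26.1% of 16771 genes were called, and 11.8% were called higher, so a rise with GSK3i was frequent across the transcriptome. In these bulk libraries, more RNA per cell and more cells with the transcript cannot be told apart.

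Depletion of β-catenin under GSK3i in BRCA2-proficient cells called fewer genes, 5.1% of 16393, with 1.92% lower. Both members were among the latter. GJB2 had a log2 fold change of -2.32 ± 0.32 (DESeq2, adjusted p = 2.62e-10, n = 3 against 3) and NTSR1 of -1.96 ± 0.29 (DESeq2, adjusted p = 5.21e-09). The groups did not overlap, at 19.2 to 37.3 against 128.5 to 175.9 for GJB2 and 160.7 to 240.7 against 474.7 to 1054 for NTSR1. The share of all genes without overlap was not counted here either. Without replicate 2 of the group labelled GSK3i plus siβ-catenin, the log2 fold changes were -2.08 and -1.84 and both genes were still called. This comparison and that of GSK3i share their GSK3i libraries, so they are not separate observations of the high level.

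**Figure D2:**
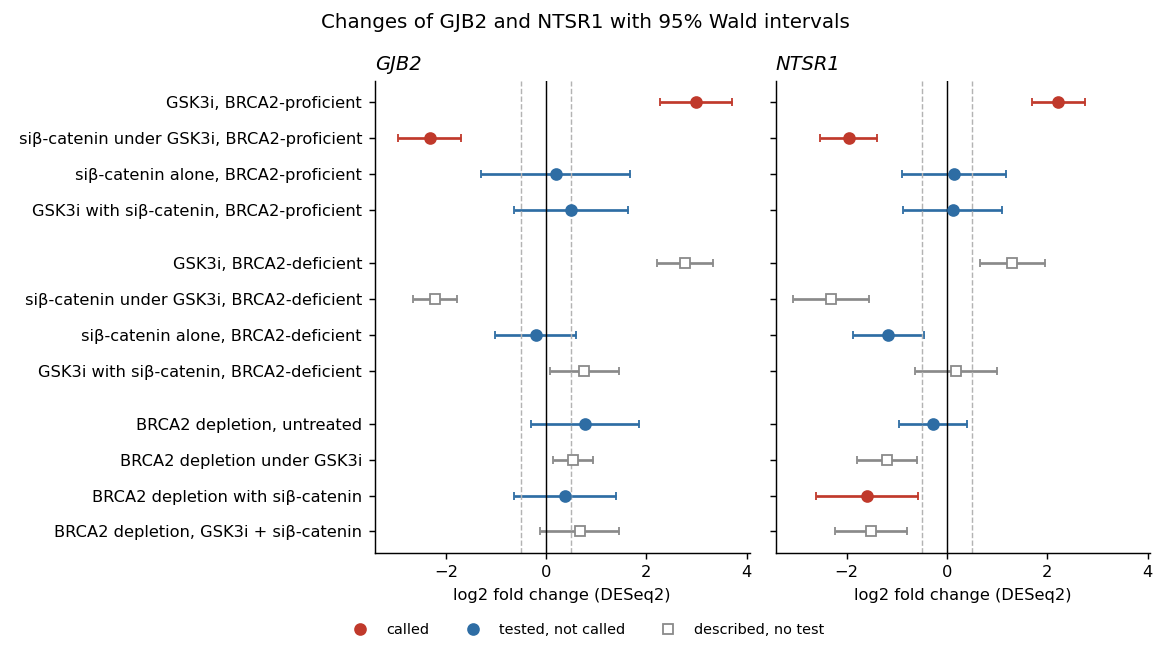
Log2 fold changes of GJB2 (left) and NTSR1 (right) in 12 pairwise comparisons, with 95% Wald intervals from DESeq2. Red circles were called, blue circles were tested and not called, and open grey squares share libraries with the contrast that chose the genes and were not tested. Dashed lines mark 0.5 in size. Both genes lie far to the right with GSK3i and far to the left with siβ-catenin under GSK3i in both backgrounds, and NTSR1 alone lies to the left in the lower comparisons of BRCA2 status under treatment.

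Without GSK3i, depletion of β-catenin in BRCA2-deficient cells left GJB2 at 19.4 to 36.1 normalised counts against 23.8 to 44.002, a log2 fold change of -0.20 (95% interval -1.01 to 0.60, DESeq2 adjusted p = 0.905). NTSR1 had 35.3 to 89.1 against 85.6 to 185.6 and was lower in 3 of 3 pairs of the same number. Its log2 fold change was -1.17 ± 0.36 (DESeq2 adjusted p = 0.0505), which missed the threshold, while the fit with the replicate number as a block called it (-1.18, DESeq2 adjusted p = 0.015). In this comparison 2.03% of 17324 genes were called. The groups of NTSR1 overlapped by 89.1 against 85.6, between libraries of different number.

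In BRCA2-proficient cells without GSK3i the same depletion was measured in 2 libraries against 2. GJB2 had a log2 fold change of 0.19 (95% interval -1.30 to 1.67), for which DESeq2 gave no adjusted p, and NTSR1 of 0.14 (-0.89 to 1.17, DESeq2 adjusted p = 0.933), against 2.97% of genes called. Without the library labelled siβ-catenin replicate 2, which left replicate 3 alone in its group, the values were -0.06 for GJB2 and -1.11 for NTSR1. The direction for NTSR1 thus rested on replicate 2.

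The inhibitor was also compared with none in cells given siβ-catenin. In BRCA2-proficient cells the log2 fold change was 0.50 (95% interval -0.64 to 1.64) for GJB2 and 0.11 (-0.88 to 1.10) for NTSR1, with a DESeq2 adjusted p near 1, and 0.0529% of genes were called. Without both libraries labelled replicate 2 the values were 1.01 for GJB2 and 1.50 for NTSR1. NTSR1 then had 185.7 and 240.7 against the single remaining 76.0, so that side had no spread. The remaining library, siβ-catenin replicate 3, had a GSK3i score of 0.73, between the ranges with and without GSK3i. In BRCA2-deficient cells, untested here, GJB2 had a log2 fold change of 0.76 ± 0.35, and all 3 libraries with both agents lay above those with siβ-catenin alone. NTSR1 had 0.18 ± 0.42 in the same cells, with overlapping libraries.

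Whether siβ-catenin changed the response to GSK3i in BRCA2-proficient cells was tested as an interaction, in which 7.63% of 17093 genes were called. GJB2 had an interaction of -2.50 ± 0.60 on the log2 scale (DESeq2, adjusted p = 0.0036) and NTSR1 of -2.11 ± 0.62 (DESeq2, adjusted p = 0.0178). Without both libraries labelled replicate 2 the values were -2.00 and -0.73 in DESeq2, and neither call was kept. This left siβ-catenin replicate 3 alone in its group. edgeR's quasi-likelihood test called neither gene on the full set of libraries (-2.47 and -2.08).

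BRCA2 status went with opposite differences of the 2 genes under GSK3i. GJB2 was higher in BRCA2-deficient cells by 0.54 ± 0.20 on the log2 scale (207.4 to 248.6 against 128.5 to 175.9), and NTSR1 had a log2 difference of -1.19 ± 0.30 (272.7 to 472.0 against 474.7 to 1054). With siβ-catenin as well, the differences were 0.67 ± 0.40 and -1.52 ± 0.37, or 0.42 and -1.65 without replicate 2 of the BRCA2-proficient group. Neither gene's libraries overlapped between the backgrounds in these comparisons, which use the libraries that chose the genes and were not tested.

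Without GSK3i the comparison of backgrounds could be tested. In untreated cells GJB2 had a log2 fold change of 0.78 ± 0.55 with BRCA2 depletion (DESeq2 adjusted p = 0.445) and NTSR1 of -0.28 ± 0.34 (DESeq2 adjusted p = 0.704), where 6.91% of genes were called. With siβ-catenin GJB2 had 0.38 ± 0.52 (DESeq2 adjusted p = 0.62), and NTSR1 was called at -1.59 ± 0.52 (DESeq2 adjusted p = 0.0107), where 27.4% of genes were called. The NTSR1 call rested on the BRCA2-proficient library labelled replicate 2. Without it replicate 3 stood alone in its group, and the values were -0.35 for NTSR1 and 0.63 for GJB2. The difference between backgrounds in the effect of siβ-catenin was -0.39 ± 0.70 for GJB2, for which DESeq2 gave no adjusted p, and -1.31 ± 0.67 for NTSR1 (DESeq2 adjusted p = 0.297), with 2.5% of genes called. Without the same library these were -0.13 and -0.06.

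The list of connexins held 18 genes besides GJB2, of which 13 were in the table and from 3 to 5 had enough counts to be tested in a comparison. GJA3, a connexin of the eye lens, lies 26411 bases from GJB2 at chr13:20712394-20735191 on the same strand, and is the nearest protein-coding gene on that side. It had 40.6 and 46.6 normalised counts in untreated BRCA2-proficient cells, 113.0, 95.6 and 102.6 with GSK3i, 35.3 and 34.0 with siβ-catenin, and 52.4, 21.2 (replicate 2) and 59.2 with both. In BRCA2-deficient cells it had 33.3, 46.6 and 36.8, then 103.1, 168.0 and 133.2 with GSK3i, 36.97, 36.2 and 22.8 with siβ-catenin, and 69.0, 64.5 and 46.7 with both. As with GJB2, the 6 libraries with GSK3i and control siRNA (95.6 to 168.0) stood clear of the other 16 (21.2 to 69.0).

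With GSK3i GJA3 rose by 1.23 ± 0.32 on the log2 scale in BRCA2-proficient cells (DESeq2 adjusted p = 0.000696) and 1.79 ± 0.31 in BRCA2-deficient cells (DESeq2 adjusted p = 2.12e-07). It fell with siβ-catenin under GSK3i, with a log2 fold change of -1.21 ± 0.38 (adjusted p = 0.0299) and -1.18 ± 0.29 (adjusted p = 0.0025) in DESeq2. The first was -0.88 (DESeq2 adjusted p = 0.0364) without replicate 2 of the group labelled GSK3i plus siβ-catenin. edgeR called the rise in both backgrounds and the fall in neither (adjusted p = 0.128 and 0.0663). GJB6, the gene on the other side of GJB2, was not analysed here.

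GJA1 and GJC1 did not share this pattern. GJA1, the gene of the most widespread connexin of the body (Cx43), rose in BRCA2-proficient cells by 2.40 ± 0.51 on the log2 scale (DESeq2 adjusted p = 0.000253) when β-catenin was depleted under GSK3i, from 9.17 ± 2.44 to 47.6 ± 13.0 normalised counts (SD, n = 3 each), or by 2.61 without replicate 2 of the group labelled GSK3i plus siβ-catenin. In BRCA2-deficient cells its log2 fold change was 1.23 ± 0.55 (DESeq2 adjusted p = 0.186). GJC1, the connexin with the most counts here at 1983 to 3228, had log2 fold changes between -0.10 and 0.27 for GSK3i and for siβ-catenin under GSK3i in the 2 backgrounds. Of the tested connexins other than GJB2, 1 of 3 was called with GSK3i in BRCA2-proficient and 1 of 3 in BRCA2-deficient cells, GJA3 in both, beside 26.1% and 25.4% of all genes. The medians over these 3 genes were 0.05 and 0.27 on the log2 scale, beside 0.00 and 0.02 over all genes tested.

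Among 6 pannexins and junction partners, genes of related channels and of the scaffolds that hold gap and tight junctions, the called changes with GSK3i were decreases, 2 of 6 in BRCA2-proficient and 1 of 6 in BRCA2-deficient cells, near the 26.1% and 25.4% of all genes called. TJP3, a tight junction scaffold, had log2 fold changes of -3.27 ± 0.41 in BRCA2-proficient cells (DESeq2 adjusted p = 6.42e-14) and -2.88 ± 0.35 in BRCA2-deficient cells (DESeq2 adjusted p = 1.09e-14). The channel gene PANX2 fell by 1.39 in BRCA2-proficient cells. With siβ-catenin under GSK3i, TJP3 rose by 1.45 ± 0.30 in BRCA2-deficient cells (DESeq2 adjusted p = 0.000131). In BRCA2-proficient cells TJP3 was called at 2.68 ± 0.70 (DESeq2 adjusted p = 0.00568), and was not called without replicate 2 of the group labelled GSK3i plus siβ-catenin (1.18 on the log2 scale).

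No tested partner of NTSR1 was called both higher with GSK3i and lower with siβ-catenin under GSK3i. Its ligand NTS, named after its values were seen, had 1 to 21 raw counts per library and was below the level at which it could be tested with GSK3i. Of 5 tested genes for other neurotensin receptors and neurotensin-cleaving peptidases, 1 was called higher and 1 lower with GSK3i in BRCA2-proficient cells, beside 26.1% of all genes called in either direction. THOP1, a peptidase that cleaves neurotensin, rose by 1.04 ± 0.14 on the log2 scale (DESeq2 adjusted p = 1.98e-11) and 1.22 ± 0.16 in BRCA2-deficient cells (DESeq2 adjusted p = 1.32e-12). The sorting receptor SORL1 fell by 0.80 in BRCA2-proficient cells (DESeq2 adjusted p = 1.24e-05).

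Under GSK3i, siβ-catenin went with a rise of MME, the membrane peptidase neprilysin, by 0.62 ± 0.15 in BRCA2-proficient cells (DESeq2 adjusted p = 0.00235) and 0.97 ± 0.17 in BRCA2-deficient cells (DESeq2 adjusted p = 2.27e-06). The first was not called in edgeR (adjusted p = 0.0604) and was 0.70 without replicate 2 of the group labelled GSK3i plus siβ-catenin. NLN, the peptidase neurolysin, fell by 0.55 in BRCA2-deficient cells (DESeq2 adjusted p = 0.00434, edgeR 0.0793). In BRCA2-proficient cells it was not called, at 1506 to 1690 normalised counts against 1791 to 2220. SORT1, the sorting receptor that also binds neurotensin, was called in none of these 4 comparisons and fell by 0.60 with BRCA2 depletion in untreated cells (DESeq2 adjusted p = 0.0105, edgeR 0.0771).

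**Figure D3:**
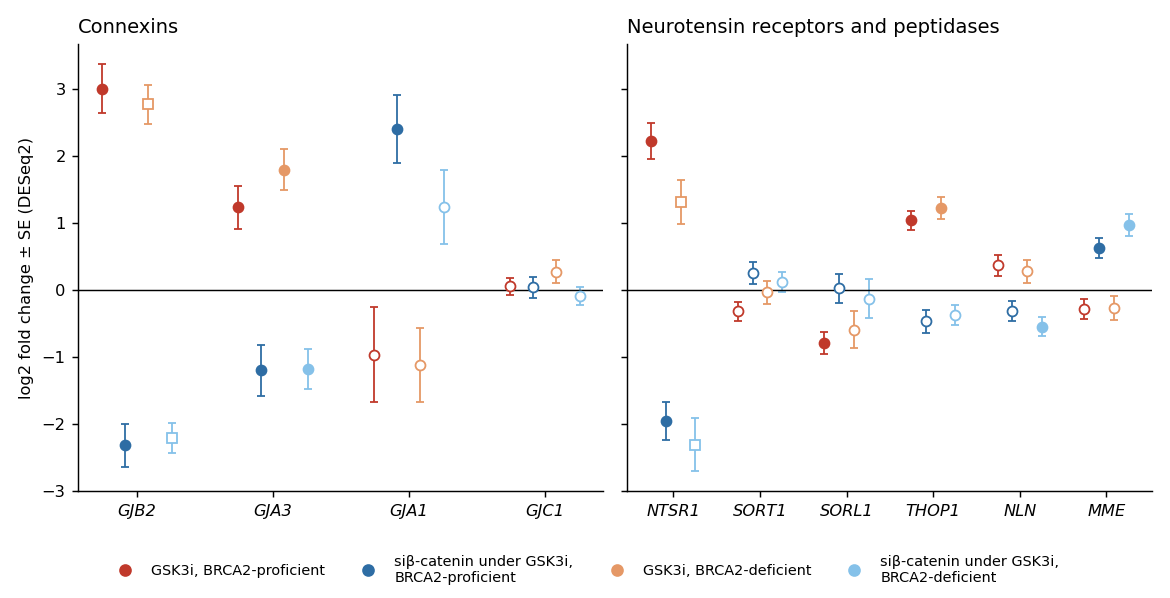
Log2 fold changes ± SE (DESeq2) of GJB2 and 3 other connexins (left), and of NTSR1 and 5 genes for other neurotensin receptors and peptidases (right). Colours mark the comparison, filled symbols were called, open circles were not called, and open squares are values of GJB2 and NTSR1 that were not tested. Of the genes shown besides GJB2 and NTSR1, GJA3 alone is called higher with GSK3i and lower with siβ-catenin in both backgrounds.

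Of 13 tested genes of Gq signalling, the branch through which NTSR1 acts, 2 were called higher and 3 lower with GSK3i in BRCA2-proficient cells, beside 26.1% of all genes called in either direction. ITPR3 and ITPR1, calcium channels of the endoplasmic reticulum, rose by 0.51 ± 0.17 (adjusted p = 0.0107) and 0.51 ± 0.20 (adjusted p = 0.0327) in DESeq2, and edgeR called the other 4 but not ITPR1 (adjusted p = 0.0594). The arrestin gene ARRB1 fell by 1.69 and the phospholipase C genes PLCB1 and PLCB4 by 0.61 and 0.57. In BRCA2-deficient cells ITPR3 was called, at 0.80 ± 0.26 (DESeq2 adjusted p = 0.0115). The median over the 13 genes was 0.02 and 0.22 in the 2 backgrounds, beside 0.00 and 0.02 over all genes tested.

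The list of WNT targets showed the same 2 directions as GJB2 and NTSR1 in larger numbers. With GSK3i, 7 of 16 tested targets were called higher and 1 lower in BRCA2-proficient cells, and 9 higher and 1 lower in BRCA2-deficient cells, beside 26.1% and 25.4% of all genes called in either direction. With siβ-catenin under GSK3i, 7 and 11 of 16 were called lower in DESeq2, beside 5.1% and 5.52% of all genes called, and 5 and 8 were called in edgeR. The medians over the 16 targets were 0.64 and 0.78 with GSK3i and -0.80 and -1.14 with siβ-catenin, beside medians between -0.02 and 0.02 over all genes tested. AXIN2 rose by 3.83 ± 0.19 and 4.61 ± 0.22 on the log2 scale, and the TCF/LEF family genes LEF1 (2.83 ± 0.24 and 3.05 ± 0.22) and TCF7 (2.43 ± 0.16 and 2.24 ± 0.17) followed it. CD44, a cell-surface receptor on the list, fell by 0.63 and 0.77. With siβ-catenin alone in BRCA2-deficient cells none of the 16 was called in DESeq2, beside 2.03% of all 17324 genes. edgeR called 0 of all genes there, so it could not tell these targets from the rest. In DESeq2, 4 of the 16 had an unadjusted p under 0.05, beside 2215 of the 17324 genes. The list was written with results of these data known. Of 13 tested genes of the β-catenin complex, its partners in the nucleus and the destruction complex that degrades it, 2 were called higher and 3 lower with GSK3i in BRCA2-proficient cells, beside the same 26.1% of all genes. In BRCA2-deficient cells 4 were called higher and 0 lower, beside 25.4% of all genes. CTNNB1 itself had a log2 fold change of -0.27 ± 0.12 in BRCA2-proficient cells (DESeq2 adjusted p = 0.0598), so its transcript did not rise with GJB2 and NTSR1.

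**Figure D4:**
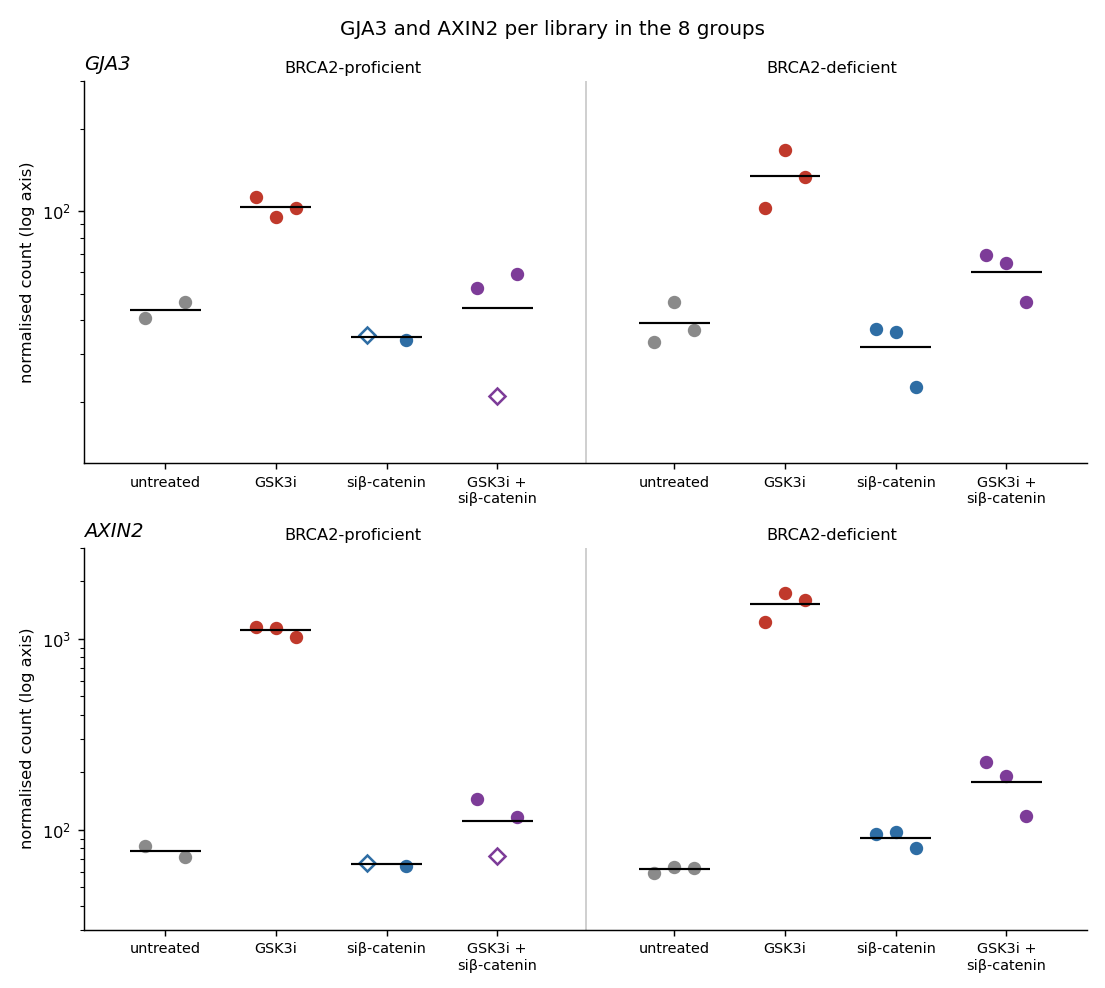
Normalised counts (log axis) of GJA3 (top) and AXIN2 (bottom) in each of the 22 libraries, drawn as in the plot of GJB2 and NTSR1 by library. For both genes the 6 libraries with GSK3i and control siRNA stand above the other 16, at 95.6 to 168.0 against 21.2 to 69.0 for GJA3 and 1027 to 1747 against 59.5 to 227.1 for AXIN2.

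Both protein-coding neighbours of NTSR1 rose with GSK3i, a change frequent among all genes. In BRCA2-proficient cells 26.1% of all genes were called in either direction and 11.8% of all genes were called higher. In BRCA2-deficient cells 25.4% were called in either direction. SLCO4A1, an organic anion transporter 23051 bases away at chr20:61273855-61317137, rose by 1.35 ± 0.26 on the log2 scale in BRCA2-proficient cells (DESeq2 adjusted p = 3.66e-06) and 1.76 ± 0.29 in BRCA2-deficient cells (DESeq2 adjusted p = 4.79e-08). MRGBP, a subunit of a histone acetyltransferase complex 33702 bases away on the other side, rose by 0.53 ± 0.14 and 0.52 ± 0.19. The rise of MRGBP in BRCA2-deficient cells was not called in edgeR (adjusted p = 0.0517). Neither gene was called with siβ-catenin under GSK3i, where SLCO4A1 had -0.60 ± 0.30 (adjusted p = 0.256) and -0.48 ± 0.23 (adjusted p = 0.219) in DESeq2. The first was -0.37 without replicate 2 of the group labelled GSK3i plus siβ-catenin. A long noncoding RNA on the opposite strand inside NTSR1 (ENSG00000223669) had 0 to 4 raw counts per library. CRYL1, the nearest gene of the table above GJB2 by coordinate at 210728 bases, fell by 0.80 with GSK3i in BRCA2-deficient cells (DESeq2 adjusted p = 0.00197).

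The genes whose log2 levels followed each member most closely over the 22 libraries were different. For GJB2 they were SH3RF2, a RING-type ubiquitin ligase (Pearson r = 0.97), SLC2A8, a sugar transporter (0.96), PMEPA1, a membrane protein that dampens TGF-β signalling (0.95), AXIN2 (0.95) and TLN2, a talin that links integrins to actin (0.95). For NTSR1 they were PHC2, a Polycomb protein (0.95), PITPNC1, a phospholipid transfer protein (0.93), GAR1, a component of small nucleolar particles (0.92), RBFA, a mitochondrial ribosome factor (0.92), and TMEM158, a membrane protein induced by RAS (0.92). GJB2 and NTSR1 had r = 0.62 with each other, and r = 0.74 over the 16 libraries outside the contrast that chose them. These values describe 22 libraries that share 8 treatments and are not independent points.

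SH3RF2 spanned 801.6 to 5107 normalised counts. In BRCA2-deficient cells without GSK3i its log2 fold change with siβ-catenin was -0.01 ± 0.20, beside the -0.20 of GJB2. The other genes closest to GJB2 lay on both sides of 0 there. PMEPA1 had -0.30 ± 0.23, TLN2 -0.04 ± 0.17, SLC2A8 0.32 ± 0.20 and AXIN2 0.55 ± 0.25. In the same comparison TMEM158 had -1.07 ± 0.19 and GAR1 -0.71 ± 0.16, on the side of the -1.17 of NTSR1. TMEM158 also had -1.34 ± 0.21 with BRCA2 depletion in untreated cells. Having been chosen for their likeness over the same libraries, these genes give values side by side and no test. Without the 2 libraries that went against their labels, the same 5 genes were closest to GJB2, and 2 of the 5 to NTSR1. With Spearman's rho 2 and 3 of the 5 were kept, with counts scaled to library totals 2 and 4, and over the 16 libraries outside the contrast that chose the genes 3 and 3.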

How the data were processed

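RNA-seq was done on 22 libraries, whose 8 groups were taken from the labels. The deposited values were raw counts per Ensembl gene. The authors prepared stranded poly(A) libraries (TruSeq), aligned reads to GRCh37 (hg19) with HISAT2 2.0.4, marked duplicates with Picard 1.9.2 and counted with featureCounts 1.5.0. The published study lists other versions of these programs and states that duplicates were removed. The strand setting and the Ensembl release are not given in the sources used here, so reads of overlapping opposite-strand genes cannot be told apart. At totals of 18.9 to 29.3 M counts, replicates still differed beyond counting error (chi-square per gene 10.8 to 64.4 over 20 pairs). The labels do not say that same-numbered libraries share a culture, and the p-values measure the spread between these libraries.

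Each comparison was fitted on its own libraries, over all genes, with DESeq2 1.42.0 in R 4.3.3 (Wald test, median-of-ratios size factors, no shrinkage). The package and the thresholds for a call were those of the study. Genes with under 10 counts in more than 3 libraries of the comparison were left out, and interactions needed 10 counts or more in 3 libraries or more. In a fit of 3 libraries the filter removes no gene. p-values were adjusted by the Benjamini-Hochberg method over all genes tested. An adjusted p that DESeq2 left empty was kept so. Intervals are Wald intervals (95%). Alternatives were edgeR 4.0.16, no filter, TMM factors, library totals, 1 model over all groups, a replicate block and each library left out. Fits without the libraries that went against their labels were added after seeing the data. In the 7 comparisons with 3 same-numbered pairs every pair's deviations correlated (0.16 to 0.84), so the numbers were taken to pair those samples. In the comparisons with 2 such pairs the correlations ran from -0.42 to 0.24, and the numbers were not taken to pair those samples. The p-values given here come from fits without any pairing, except where the replicate block is named. On simulated counts with 200 genes changed by 1 on the log2 scale, 133 were recovered, with 15 false calls, for GSK3i in BRCA2-proficient cells (16432 genes). For siβ-catenin there under GSK3i it was 118 with 32 (16146 genes), for siβ-catenin alone 105 with 24 (17262 genes) and for the interaction of GSK3i and siβ-catenin 70 with 29 (16834 genes). In each of these simulations the share of calls that were false exceeded the 0.05 set for the adjusted p.

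The members, comparisons and gene lists were chosen with earlier results of these data known. Named were the members, up to 3 called genes with the largest change each way per list and comparison, the connexins of the list and neurotensin genes whose mean normalised count reached 10, the 5 genes of highest likeness (Pearson r of log2 normalised count + 1, genes with a mean of at least 50), and the neighbouring genes. Some called members of the lists are not named. Symbols and positions came from GENCODE on GRCh37. Heptamers were searched on both strands. Some genes of the connexin and junction lists are not reported here and were left out of the counts of those lists.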

Additional observations from a re-analysis of the deposited data

Results flagged for a closer look

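In BRCA2-proficient cells DESeq2's test of the interaction called a difference between the siRNAs in the response of both genes to GSK3i. edgeR called neither gene, and each gene lost its call in some fits with a library left out. The interaction was -2.50 on the log2 scale for GJB2 and -2.11 for NTSR1 (DESeq2, adjusted p = 0.0036 and 0.0178). Without the libraries labelled siβ-catenin replicate 2 and GSK3i with siβ-catenin replicate 2, whose GSK3i scores of 2.22 and -0.08 went against their labels, the values were -2.00 and -0.73 and neither passed the threshold. Their part in the full values was not tested further.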

How the results depend on the processing

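The rise of GJB2 and NTSR1 with GSK3i and their fall when β-catenin was depleted under GSK3i, both in BRCA2-proficient cells, kept their direction and call in DESeq2 and edgeR, under every scaling and filter tried and with each library left out in turn (2.63 to 3.58 and 1.94 to 2.50 for GSK3i, -2.49 to -2.08 and -2.22 to -1.67 for siβ-catenin). The interaction in BRCA2-proficient cells was less stable. edgeR called neither gene (-2.47 for GJB2 with adjusted p = 0.0986, and -2.08 for NTSR1), and NTSR1 also missed the threshold without the filter on low counts (-2.13) and in 1 model over all groups (-2.13). Without both replicates 2 that went against their labels it was -2.00 for GJB2 and -0.73 for NTSR1, while GSK3i with siβ-catenin then gave 1.50 for NTSR1. With each library left out the interaction ran from -3.07 to -2.12 for GJB2, which lost its call without siβ-catenin replicate 2 (-2.24) or untreated replicate 2 (-2.12), and from -2.77 to -0.85 for NTSR1. NTSR1 lost its call in 7 of 10 such fits, all but those without GSK3i replicate 1, GSK3i replicate 3 or siβ-catenin replicate 3, and had -0.85 and -1.99 without each of the replicates 2 that went against their labels. Some of these fits leave 1 library in a group, which is then assumed to vary like the others. NTSR1 with siβ-catenin alone in BRCA2-deficient cells passed the threshold without the filter (-1.17), with TMM factors (-1.17) and with the replicate block (-1.18), but not in edgeR (adjusted p = 0.23), and ran from -1.53 to -0.89. GJB2 ran from -0.42 to 0.074 there. In BRCA2-proficient cells siβ-catenin alone gave -0.20 to 0.76 for GJB2 and -1.11 to 0.81 for NTSR1 (-0.13 with the replicate block), and GSK3i with siβ-catenin -0.56 to 1.38 for NTSR1. BRCA2 depletion with siβ-catenin gave -2.27 to -0.35 for NTSR1, and its interaction -0.96 to -0.0013 for GJB2 and -1.97 to -0.055 for NTSR1, which was called without siβ-catenin replicate 3 of the BRCA2-proficient cells (adjusted p = 0.0162). The replicate block changed no other call of either gene. Library totals as size factors moved the median of all genes to -0.13 for GSK3i in BRCA2-proficient cells and changed no call of either gene.

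The number of genes called moved more. For β-catenin depletion under GSK3i it was 836 in DESeq2 and 183 in edgeR for BRCA2-proficient cells, and 939 and 267 for BRCA2-deficient cells. For siβ-catenin alone in BRCA2-proficient cells it was 524 in DESeq2, 1 in edgeR, 189 with the replicate block and 271 in 1 model. For GSK3i with siβ-catenin in BRCA2-proficient cells it was 9 in DESeq2, 0 in edgeR (278 at an unadjusted p under 0.05), 3 with the replicate block, 1 in 1 model and 1099 without both replicates 2, where 3 libraries were left and the filter on low counts removed no gene (9 for all libraries without the filter). The interaction there called 1305 genes, against 4 in edgeR, 592 without both replicates 2 and 2151 in 1 model. For siβ-catenin alone in BRCA2-deficient cells the count was 351, 0 in edgeR (2311 at an unadjusted p under 0.05) and 527 with the replicate block. BRCA2 depletion called 1185 in untreated cells (326 in edgeR) and 4888 with siβ-catenin (2020 with the replicate block), and their interaction 442 (0 in edgeR, 2621 at an unadjusted p under 0.05, and 119 in 1 model). With each library left out, the same counts ran, in the order of the comparisons above, from 292 to 855, 366 to 1037, 21 to 2017, 3 to 28, 102 to 2251, 84 to 536, 183 to 2147, 2879 to 4912 and 9 to 1256, and from 2825 to 4266 for GSK3i in BRCA2-proficient cells. Fits of siβ-catenin alone in BRCA2-proficient cells with a library left out also had 3 libraries and no gene removed by the filter. The cause of these differences was not tested. The counts of GJB2, 11 to 248 per library, limit its precision most in the untreated groups.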
